A study of Homo sapiens with 12 samples.

Results

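Immune checkpoint and NKG2D ligands are proteins on the surface of a tumor cell that T cells, NK cells or macrophages read. The 10 genes described here, CD274, PDCD1LG2, CD276, CD47, NT5E, MICA, MICB, ULBP1, ULBP2 and ULBP3, were chosen by name from the 58288 genes listed, by a rule that holds no measured value but with earlier results of these data known. All 10 were found, and each symbol stood on a single row.

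CD274 and PDCD1LG2 encode PD-L1 and PD-L2, the ligands of the T cell inhibitory receptor PD-1, and interferon signaling is known to raise PD-L1. CD47 binds SIRPA on macrophages and restrains phagocytosis, and NT5E encodes CD73, an ectoenzyme that forms extracellular adenosine, a suppressor of T and NK cells. NT5E is counted with the ligands below because it belongs to the chosen set, although its product acts as an enzyme. MICA, MICB and the ULBP proteins are ligands of the activating receptor NKG2D on NK and CD8 T cells, and DNA damage and heat shock are known to induce them on stressed or transformed cells.

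RNA-Seq was performed in FaDu, an established head and neck squamous cell carcinoma (HNSCC) line, to ask how STING loss and ionizing radiation alter transcription. STING WT cells carried lentiviral Cas9 and a non-targeting gRNA, and STING KO cells carried lentiviral Cas9 and 1 STING gRNA, both after puromycin selection, so Cas9 and selection were common to every group. Each genotype was left unirradiated or was irradiated with 2 Gy on each of 4 days, and every one of the 4 groups had 3 libraries. A single STING gRNA was used, the labels do not say whether the libraries came from separate cultures, and the interval between the last fraction and RNA collection is not given in the sources used here. P-values therefore measure the spread between these libraries, which may be technical.

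TMEM173, the gene of STING, lay between 5.18 and 7.41 TPM (length-scaled transcript abundance, summing to the same total in every library) in the 6 KO libraries and between 21.1 and 26.1 TPM in the 6 WT libraries, so a part of the transcript was still present in KO cells (log2 fold change -1.77 unirradiated and -1.60 irradiated, limma adjusted p = 1.2e-05 and 2e-05). The paper reports loss of STING protein by immunoblot in its FaDu KO cells, so these RNA values do not show that protein remained. In bulk RNA, fewer cells that carry a transcript and less RNA per cell cannot be told apart. Every library sums to 1000000 TPM, so depth is unknown, and 14860 to 15292 genes reached 1 TPM in a library. All 10 squamous epithelial markers examined, such as KRT5 and TP63, were at 10 TPM or more in all 12 libraries. The 6 immune cell markers stayed under 1 TPM, with NKG7 listed at 0 in every library and PTPRC at most 0.0894 TPM. Among 5 fibroblast markers 4 stayed under 1 TPM, with LUM listed at 0 throughout, while COL1A1 reached 9.24 TPM. Of the 3 endothelial markers PECAM1 was at most 0.0989 TPM, but CDH5 was expressed and its mean rose with radiation from 9.57 to 15.01 TPM in WT cells and from 10.9 to 17.3 TPM in KO cells (limma adjusted p = 0.029 and 0.026).

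The ligand transcripts covered a wide range, which TPM allows to be compared because it is scaled to transcript length. CD47 was the most abundant, with a mean of 150 ± 8.74 TPM (SD over 12 libraries), and no other member came near its lowest library of 130.0 TPM. MICB (41.6 ± 4.98 TPM), MICA (38.7 ± 3.42 TPM) and CD276 (31.9 ± 13.6 TPM) followed, with overlapping libraries. ULBP2 (18.6 ± 2.78 TPM), NT5E (15.3 ± 7.20 TPM), ULBP3 (9.16 ± 2.40 TPM) and CD274 (8.60 ± 1.75 TPM) came next, and each overlapped its neighbor in this order. ULBP1 (2.41 ± 0.422 TPM) lay below every library of CD274, and PDCD1LG2 (0.578 ± 0.458 TPM) lay below every library of ULBP1.

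**Figure D1:**
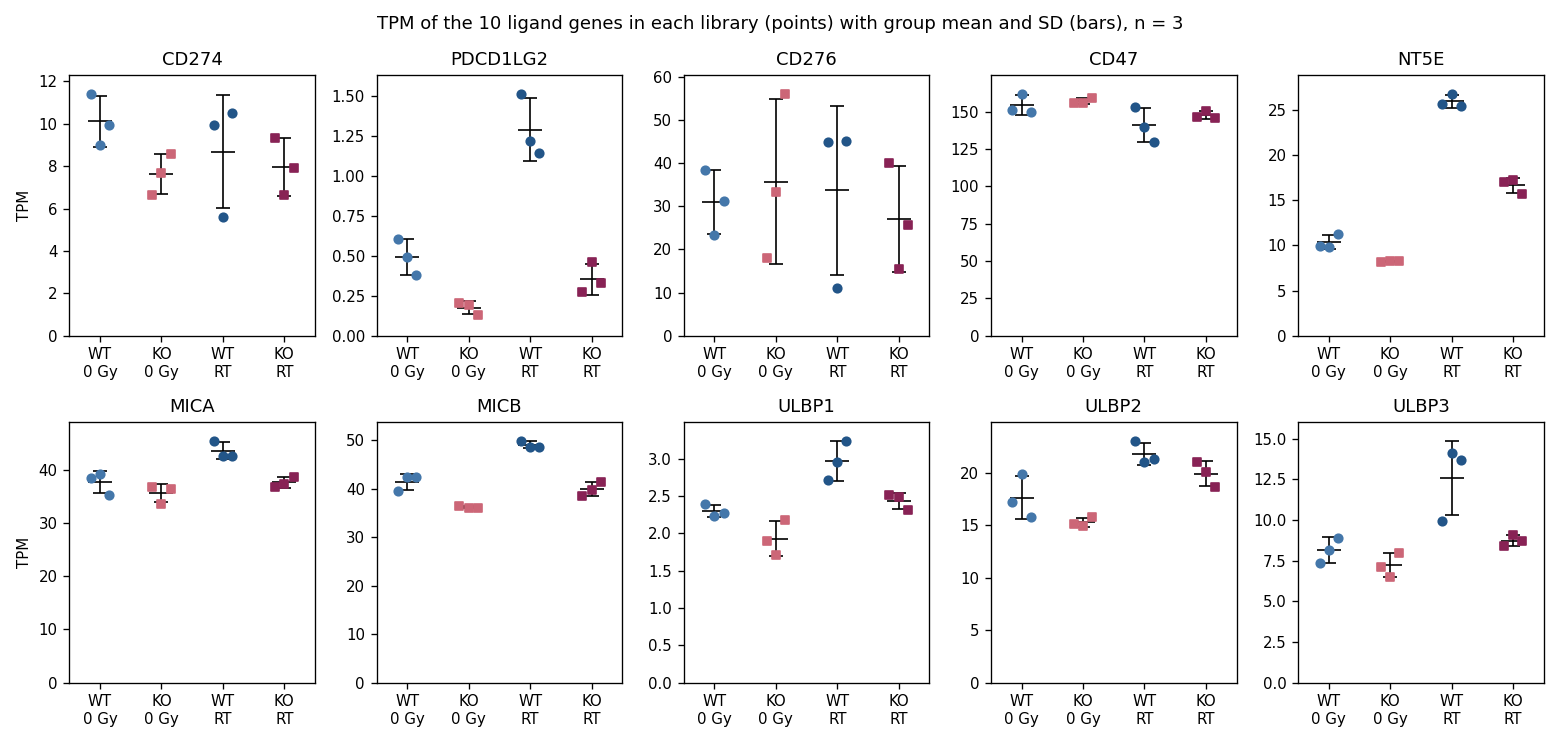
TPM of each ligand gene (vertical axes, each starting at 0) in the 4 groups (horizontal axes), with a point per library and bars for the group mean and SD, n = 3. NT5E sits at 25.4 to 26.7 TPM in irradiated WT cells, above every other group, whereas CD276 varies between 11.2 and 45.2 TPM within that same group.

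Differences were tested with limma on log2(TPM + 1) over the 15973 genes with at least 1 TPM in 3 or more libraries, and all log2 fold changes below are on that scale, which understates the change of low genes. A gene was called at a Benjamini-Hochberg adjusted p under 0.05. The 10 ligands passed the filter, but PDCD1LG2 did so only through the 3 irradiated WT libraries, so it had to differ between groups. Counts below are therefore given over the other 9 members, with PDCD1LG2 named apart from them.

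In unirradiated cells STING KO moved no ligand past the threshold. The limma test called 0 of 9, where 1.73% of tested genes were called, and 3 of 9 had an unadjusted p under 0.05, where 14.3% of tested genes did. The libraries of KO and WT did not overlap for 5 of 9 members (CD274, NT5E, MICB, ULBP1 and ULBP2), each lower in KO, and 12.1% of tested genes were apart in that direction. For ULBP2 the nearest libraries almost met, at 15.77 TPM in KO and 15.79 TPM in WT. The median log2 fold change was -0.18 for the 9 members and -0.02 for all tested genes. PDCD1LG2 was also apart and lower, and it was not called.

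In irradiated cells NT5E and MICB, and beside them PDCD1LG2, fell in KO relative to WT. Of the 9 members 2 were called lower where 2.66% of tested genes were, and none was called higher where 0.927% were. Libraries did not overlap for 6 of 9 members, each lower in KO, where 14.5% of tested genes were apart in that direction, and the median of the 9 was -0.21 against -0.02 for all tested genes.

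Fractionated radiation raised NT5E, ULBP3 and MICB, and beside them PDCD1LG2, in WT cells. Of the 9 members 3 were called higher where 2.24% of tested genes were, and 6 of 9 were apart and higher where 14.7% of tested genes were. With PDCD1LG2 the count was 4 of 10, and it fell to between 1 and 3 when any 1 library was left out. In KO cells radiation raised NT5E and ULBP2, 2 of 9 members where 2% of tested genes were called higher, and 6 of 9 were apart and higher where 13.7% were, as was PDCD1LG2. That called count ranged from 1 to 2 when 1 library was left out. CD47 was apart in the other direction in KO cells, where 10.6% of tested genes were. The median of the 9 members was 0.24 in WT and 0.14 in KO cells, against 0.02 for all tested genes in each genotype. The summed endothelial markers moved with radiation as well, from 11.5 to 13.9 TPM up to 18.3 to 18.6 TPM in WT and from 13.03 to 15.9 TPM up to 19.9 to 23.9 TPM in KO, with PECAM1 near 0, and their part in these results was not tested.

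The test of the difference between these radiation responses, the interaction of genotype and radiation, called 0 of 9 members in limma, where 0.0188% of tested genes were called, and did not call PDCD1LG2. At an unadjusted p under 0.05 was NT5E, 1 of 9, where 6.61% of tested genes were. The 4 comparisons share groups of libraries, so their values for a member are not independent of each other. Averaged over both arms, KO was lower for NT5E and MICB (2 of 9 called lower, background 4.96%), and averaged over both genotypes radiation raised NT5E, MICB, ULBP1, ULBP2 and ULBP3 (5 of 9 called higher, background 6.14%). PDCD1LG2, which the filter admitted only through irradiated WT, was called in both averages, at -0.55 and 0.41 (limma adjusted p = 0.0037 and 0.014).

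**Figure D2:**
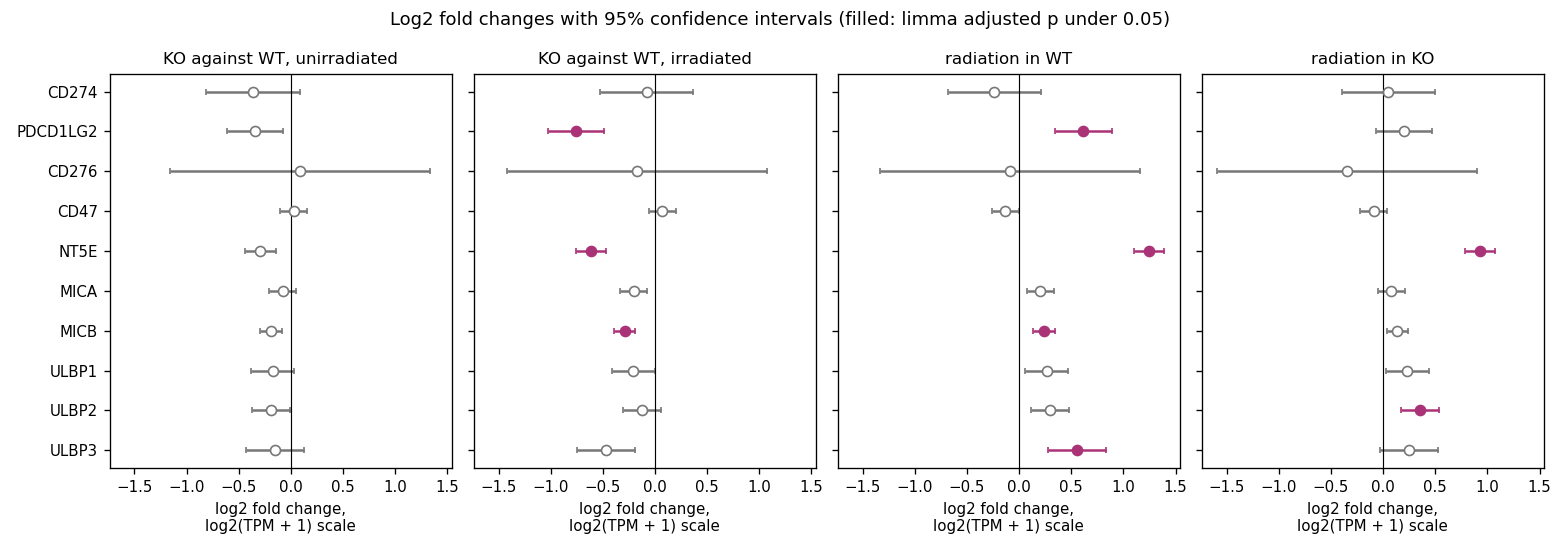
Log2 fold change on the log2(TPM + 1) scale (horizontal axes) of the 10 ligands (vertical axis) in the 4 comparisons, with 95% confidence intervals from limma and filled points for an adjusted p under 0.05. NT5E has filled points in 3 panels, at -0.61, 1.25 and 0.93, and the intervals of CD276 are the widest of the members in each panel.

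NT5E (ENSG00000135318.11, GRCh38 chromosome 6, 85449584 to 85495791, plus strand) had the largest radiation response of the 10 in both genotypes on the log2(TPM + 1) scale. As a ratio of means, the low transcript PDCD1LG2 rose more in WT (2.62-fold) and about as much in KO (2.02-fold). Its TPM was 9.94, 9.84 and 11.3 in unirradiated WT, 8.20, 8.30 and 8.28 in unirradiated KO, 25.7, 26.7 and 25.4 in irradiated WT and 17.0, 17.3 and 15.7 in irradiated KO. The groups did not overlap, and irradiated WT was highest, followed by irradiated KO, unirradiated WT and unirradiated KO. Radiation raised the mean 2.50-fold in WT (log2 fold change 1.25, SE 0.065, limma adjusted p = 1.1e-05) and 2.02-fold in KO (0.93, SE 0.065, adjusted p = 9.3e-05). The irradiated KO mean was 0.642 of the irradiated WT mean (log2 fold change -0.61, SE 0.065, limma adjusted p = 0.00044), and all of these calls held in each of 12 fits that left out 1 library. In unirradiated cells the KO mean was 0.797 of WT, with a log2 fold change of -0.29 (95% confidence interval -0.44 to -0.15) and a limma adjusted p of 0.058. That difference became a call with a pseudocount of 0.1 (limma adjusted p = 0.048) or a filter of mean TPM of at least 5 (0.042). The interaction was -0.32 (95% confidence interval -0.52 to -0.11, unadjusted p = 0.0059, limma adjusted p = 0.67), which did not pass the threshold.

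Genes that act before and after NT5E in adenosine metabolism, or that process and shed other ligands, were read from a list of 16 genes, of which 12 were tested. ENTPD1 and ENTPD3, the listed genes that act before NT5E, were too low to be tested, at most 0.101 and 0.849 TPM in any library. SLC29A1, an equilibrative nucleoside transporter that carries adenosine across the membrane, fell in irradiated KO relative to irradiated WT, from 46.9 to 38.0 TPM (log2 fold change -0.30, limma adjusted p = 0.011), and rose with radiation in WT from 38.5 to 46.9 TPM (0.28, adjusted p = 0.018). ADA, which deaminates adenosine, had means of 11.1 TPM in unirradiated WT and 9.09 TPM in irradiated WT and was not called (limma adjusted p = 0.19). The adenosine receptor gene ADORA2B had means of 55.6 TPM in irradiated WT and 48.1 TPM in irradiated KO (limma adjusted p = 0.071), and averaged over both arms it was lower in KO (log2 fold change -0.17, adjusted p = 0.023).

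CD274 (ENSG00000120217.13, chromosome 9, 5450503 to 5470566, plus strand) and PDCD1LG2 (ENSG00000197646.7, chromosome 9, 5510570 to 5571254, plus strand) lie 40004 bases apart, yet their values followed different patterns. CD274 stood at 11.4, 9.003 and 9.94 TPM in unirradiated WT, 6.66, 7.67 and 8.56 TPM in unirradiated KO, 9.95, 5.61 and 10.5 TPM in irradiated WT and 9.34, 6.63 and 7.94 TPM in irradiated KO. The unirradiated groups did not overlap and KO was lower, while every other pair of groups overlapped. The unirradiated log2 fold change of KO against WT was -0.37 (95% confidence interval -0.81 to 0.08, limma adjusted p = 0.46). The others were -0.08 in irradiated cells (limma adjusted p = 0.88), -0.24 for radiation in WT (0.61) and 0.05 for radiation in KO (0.93). None passed the threshold, and the interval of each spanned 0, so a fall in KO of up to 0.81 in unirradiated cells is not excluded by these libraries.

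PDCD1LG2 stood at 0.604, 0.496 and 0.378 TPM in unirradiated WT, 0.203, 0.193 and 0.130 TPM in unirradiated KO, 1.51, 1.22 and 1.14 TPM in irradiated WT and 0.273, 0.462 and 0.328 TPM in irradiated KO. Irradiated WT was above every other library, unirradiated KO was below every other library, and unirradiated WT overlapped irradiated KO. The filter admitted this gene only through irradiated WT, so its calls that set that group against another are not independent support. Irradiated KO was lower than irradiated WT, with means of 0.354 and 1.29 TPM (log2 fold change -0.76, SE 0.12, limma adjusted p = 0.007). Radiation raised the WT mean from 0.493 to 1.29 TPM (0.62, SE 0.12, limma adjusted p = 0.023), a call that was lost when any of 5 of the 6 WT libraries was left out (adjusted p from 0.052 to 0.096). In KO cells the means were 0.176 TPM before and 0.354 TPM after radiation (log2 fold change 0.20, limma adjusted p = 0.43). The interaction was -0.42 (95% confidence interval -0.80 to -0.03, unadjusted p = 0.036, limma adjusted p = 0.74).

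The CD274 promoter is shown because this gene is the member best known as an interferon target. The stretch is chr9:5450292-5450502 on the plus strand (GRCh38.p14, RefSeq), which runs from 250 to 40 bases before the RefSeq start and stops where exons of GENCODE release 29 begin. Capitals mark matches to 2 motifs. The interferon-stimulated response element was searched on both strands as GAAA, any 2 bases and GAAA, and it matched on the reverse strand as TTTCACTTTC and TTTCTGTTTC, which overlap and lie between 208 and 193 bases before the start. The gamma-activated sequence, searched as TTCNNNGAA, matched as TTCACCGAA between 125 and 117 bases before the start.
CD274 promoter: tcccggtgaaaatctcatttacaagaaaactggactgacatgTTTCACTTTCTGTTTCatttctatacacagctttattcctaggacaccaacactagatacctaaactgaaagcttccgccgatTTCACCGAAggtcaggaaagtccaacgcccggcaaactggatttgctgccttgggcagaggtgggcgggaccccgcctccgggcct

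Of 35116 RefSeq promoter windows of 250 bases, 3.02% held the first motif and 6.57% the second, and CD274 was the member with a match among the 9 members that had an entry. An AP-1 site, searched as TGANTCA, was held by 6.57% of all windows and by none of the members' windows. All motifs were searched in the full 250 bases before each start, including bases that exons cover and that are not printed. These matches describe letters in a window and are not evidence that a factor bound there. The sequence stands beside a CD274 transcript that passed no test here.

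CD276 (ENSG00000103855.17, chromosome 15, 73683966 to 73714518, plus strand), also named B7-H3 and a member of the B7 family, had the least repeatable values. It stood at 38.3, 23.4 and 31.2 TPM in unirradiated WT, 17.9, 33.2 and 56.0 TPM in unirradiated KO, 44.8, 11.2 and 45.2 TPM in irradiated WT and 40.01, 15.5 and 25.6 TPM in irradiated KO. All groups overlapped, and irradiated WT alone held the lowest of the 12 libraries (11.2 TPM) and its other libraries stood at 44.8 and 45.2 TPM. The coefficient of variation within groups was 47.1%, above 98.8% of the 4928 tested genes whose mean lay within 2-fold of its own, which had a median of 8.25%. No comparison was called, and the log2 fold changes, from -0.34 to 0.08, had 95% confidence intervals that reached from -1.59 to 1.33. For CD276 these libraries cannot show a change smaller than such intervals.

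CD274 and CD276 varied together among libraries of the same group, a pattern noticed after the values were seen. The 3 libraries of a group stood in the same order for both genes in 4 of 4 groups. In irradiated WT, replicate 2 was the lowest for CD274 (5.61 TPM) and for CD276 (11.2 TPM), and in unirradiated KO replicate 3 was the highest for both, at 8.56 and 56.0 TPM. After subtraction of group means, Pearson's r of log2(TPM + 1) was 0.967 over 12 libraries, the highest of the 45 pairs of members, given as a description. Among the 15972 other tested genes CD274 ranked 1 by that measure with CD276, 4 genes reached 0.9 and 6 genes were at -0.9 or lower. The genes lie on different chromosomes and shared no stretch of 100 bases between their transcripts, and what the libraries of a group differ in was not tested.

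**Figure D3:**
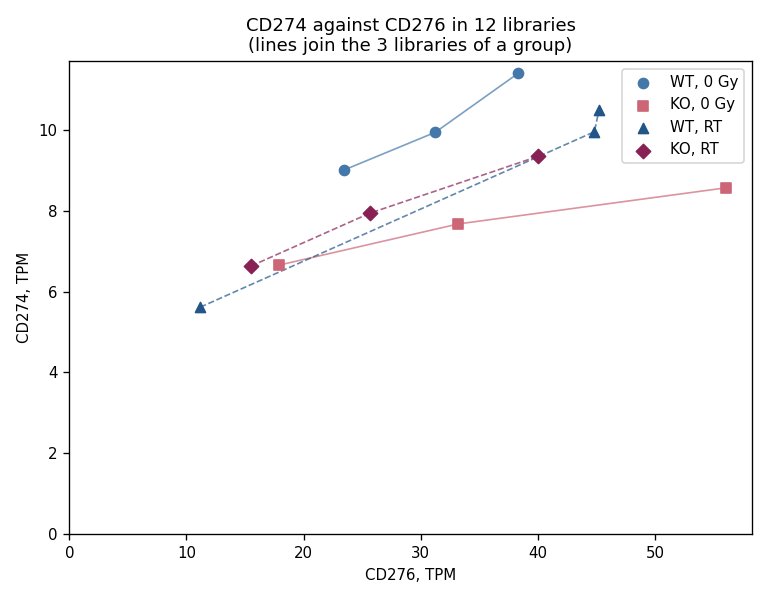
CD274 (vertical axis, TPM) against CD276 (horizontal axis, TPM), with a point for each of 12 libraries and lines joining the 3 libraries of a group. Each line rises from left to right, and the lowest CD276 library, at 11.2 TPM, is also the lowest for CD274, at 5.61 TPM.

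CD47 (ENSG00000196776.14, chromosome 3, 108043094 to 108091862, minus strand) was not called in any comparison. It stood at 151, 162 and 150 TPM in unirradiated WT, 156, 156 and 159 TPM in unirradiated KO, 153, 140 and 130.0 TPM in irradiated WT and 146, 151 and 146 TPM in irradiated KO. The irradiated KO libraries were below the unirradiated KO libraries, and the other comparisons overlapped. The log2 fold change was 0.03 for KO in unirradiated cells, 0.07 for KO in irradiated cells, -0.13 for radiation in WT and -0.09 for radiation in KO, with limma adjusted p from 0.26 to 0.89. The 95% confidence intervals of these values reached from -0.26 to 0.20, which bounds any change of CD47 more tightly than for CD274 or CD276. SIRPA, the receptor of CD47, had group means of 8.49 to 9.26 TPM in these tumor cells and was not called in any comparison.

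MICA (ENSG00000204520.12, chromosome 6, 31399784 to 31415315, plus strand) and MICB (ENSG00000204516.9, chromosome 6, 31494881 to 31511124, plus strand) lie 79.6 kb apart and encode transmembrane NKG2D ligands. MICB stood at 39.5, 42.4 and 42.3 TPM in unirradiated WT, 36.4, 36.1 and 35.9 TPM in unirradiated KO, 49.8, 48.5 and 48.7 TPM in irradiated WT and 38.5, 39.7 and 41.3 TPM in irradiated KO. Irradiated WT was above every other library and unirradiated KO below every other library, while unirradiated WT and irradiated KO overlapped. Irradiated KO was 0.813 of irradiated WT (log2 fold change -0.29, SE 0.046, limma adjusted p = 0.0065), which held in each of 12 fits without 1 library. Radiation raised MICB in WT by 0.24 (SE 0.046, limma adjusted p = 0.022), a call lost without unirradiated WT replicate 1 or any irradiated WT library (adjusted p from 0.06 to 0.085). In unirradiated cells KO was 0.873 of WT (-0.19, SE 0.046, limma adjusted p = 0.081), and radiation in KO gave 0.14 (adjusted p = 0.15).

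MICA stood at 38.6, 39.3 and 35.4 TPM in unirradiated WT, 36.8, 33.6 and 36.5 TPM in unirradiated KO, 45.5, 42.6 and 42.8 TPM in irradiated WT and 36.9, 37.4 and 38.8 TPM in irradiated KO. Irradiated WT was again above every other library, and the unirradiated genotypes overlapped. No comparison of MICA was called. The log2 fold changes were -0.21 for KO in irradiated cells (95% confidence interval -0.33 to -0.08, limma adjusted p = 0.086) and 0.20 for radiation in WT (0.08 to 0.33, adjusted p = 0.085). HCP5 overlaps the span of MICA on the same strand, although the annotated transcripts of MICA share no window of 100 bases with another gene, and HCP5 was not called in any of the 4 comparisons.

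The MICA and MICB promoters are shown because their upstream sequences are close copies, with 210 of 246 aligned bases identical (85.4%) over the 250 bases before each start. Irradiated WT was the highest group for both genes, as it also was for NT5E, PDCD1LG2, ULBP1, ULBP2 and ULBP3. The stretches are chr6:31403345-31403578 for MICA and chr6:31497895-31498085 for MICB, both on the plus strand (GRCh38.p14, RefSeq) and without bases in exons of GENCODE release 29. Capitals mark a pair of inverted GAA units, a part of a heat shock element, searched as GAANNTTC on both strands. It was held by 5.78% of all promoter windows. Among the 9 members it was held by MICA, 135 to 128 bases before the start, and MICB, 139 to 132 bases before the start.
MICA promoter: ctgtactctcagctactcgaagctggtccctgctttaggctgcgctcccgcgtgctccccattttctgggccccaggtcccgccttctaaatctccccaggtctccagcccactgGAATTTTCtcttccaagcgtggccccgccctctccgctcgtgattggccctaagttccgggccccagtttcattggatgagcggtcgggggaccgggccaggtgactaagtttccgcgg
MICB promoter: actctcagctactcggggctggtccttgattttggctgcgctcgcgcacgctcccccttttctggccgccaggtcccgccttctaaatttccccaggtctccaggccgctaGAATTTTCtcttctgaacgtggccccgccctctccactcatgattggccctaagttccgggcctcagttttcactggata

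HSF1, the main heat shock transcription factor, had means of 73.6 TPM in irradiated WT and 57.3 TPM in irradiated KO and fell there by 0.36 on the log2 scale (limma adjusted p = 0.026). HSF1 was not called for radiation in either genotype. The match is a description of the sequence. Binding and HSF1 activity were not measured, and a link between HSF1 and these 2 genes was not tested.

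ULBP1 (ENSG00000111981.4, chromosome 6, 149964007 to 149973710, plus strand), ULBP2 (ENSG00000131015.4, chromosome 6, 149942000 to 149949235, plus strand) and ULBP3 (ENSG00000131019.10, chromosome 6, 150063150 to 150069095, minus strand) form a cluster in which ULBP1 and ULBP2 lie 14.8 kb apart. They encode NKG2D ligands that are commonly held in the membrane by a lipid anchor. Of all 100-base windows in their transcripts, 11.9% for ULBP2, 6.86% for ULBP3 and 1.15% for ULBP1 also occur in another gene, mainly RAET1L for ULBP2 and RAET1K for the other two, so their values carry some uncertainty from shared reads. The other 7 members shared no such window.

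ULBP3 stood at 7.34, 8.16 and 8.92 TPM in unirradiated WT, 7.13, 6.51 and 7.998 TPM in unirradiated KO, 9.94, 14.1 and 13.7 TPM in irradiated WT and 8.40, 9.06 and 8.73 TPM in irradiated KO. Irradiated WT was above every other library, with replicate 1 well below the other two. Radiation raised ULBP3 1.54-fold in WT (log2 fold change 0.56, SE 0.13, limma adjusted p = 0.038), but in the fits that left out 1 library the call held in 1 of 12, the fit without irradiated WT replicate 1 (adjusted p = 0.01). The other 11 gave adjusted p values from 0.05 to 0.13. KO in irradiated cells gave -0.47 (SE 0.13, limma adjusted p = 0.076), which became a call (adjusted p = 0.015) without irradiated WT replicate 1.

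ULBP2 stood at 17.2, 19.9 and 15.8 TPM in unirradiated WT, 15.1, 14.9 and 15.8 TPM in unirradiated KO, 23.0, 21.0 and 21.3 TPM in irradiated WT and 21.0, 20.0 and 18.6 TPM in irradiated KO. Irradiated libraries lay above unirradiated ones within each genotype. KO lay below WT in both arms only narrowly, with nearest libraries of 15.77 and 15.79 TPM unirradiated and 20.98 and 21.01 TPM irradiated. Radiation raised ULBP2 1.30-fold in KO (log2 fold change 0.36, SE 0.082, limma adjusted p = 0.042), a call that held in 2 of 12 fits without 1 library, and those without unirradiated WT replicate 2 or 3 were the ones that kept it. In WT the value was 0.30 (SE 0.082, limma adjusted p = 0.083), and it became a call without unirradiated WT replicate 2 (adjusted p = 0.036). The interaction was 0.06 (95% confidence interval -0.20 to 0.32), so the genotypes were not shown to differ.

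ULBP1 stood at 2.39, 2.23 and 2.28 TPM in unirradiated WT, 1.89, 1.71 and 2.18 TPM in unirradiated KO, 2.71, 2.95 and 3.24 TPM in irradiated WT and 2.51, 2.49 and 2.31 TPM in irradiated KO. Irradiated WT was above every other library and unirradiated KO below every other library. No single comparison was called, with log2 fold changes of 0.26 for radiation in WT (limma adjusted p = 0.17) and 0.23 for radiation in KO (0.21). The mean radiation effect over both genotypes was 0.25 (limma adjusted p = 0.038), and that call was lost in 10 of the 12 fits without 1 library (adjusted p from 0.052 to 0.086).

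Further ligands and regulators were read from lists chosen by function. As background to their counts, limma called 1.26% of tested genes lower in unirradiated KO and 2.66% lower in irradiated KO, 2.24% higher and 1.5% lower with radiation in WT, and 2% higher with radiation in KO. Among 22 other checkpoint ligands 12 were tested, and in KO against WT 1 was called lower in unirradiated and 2 in irradiated cells, while radiation raised 3 in WT and 1 in KO. The list's median log2 fold changes were 0.09, -0.07, 0.10 and -0.01 in that order of comparisons, against -0.02, -0.02, 0.02 and 0.02 for all tested genes. CEACAM1, an adhesion molecule described as a ligand of the inhibitory receptor TIM-3, fell in KO from 1.68 to 0.0648 TPM in unirradiated cells (log2 fold change -1.33, limma adjusted p = 0.00039) and from 3.13 to 0.359 TPM in irradiated cells (-1.59, adjusted p = 6.9e-05), and rose with radiation in WT (0.62, adjusted p = 0.032). The filter admitted CEACAM1 only through WT libraries, since KO libraries reached at most 0.408 TPM. Its KO calls, among them the 1 call of this list in unirradiated cells, are therefore not independent of the filter. PVR, the CD155 ligand of TIGIT and of the activating receptor CD226, rose with radiation in WT from 25.2 to 40.05 TPM (0.65, limma adjusted p = 0.019) and fell in irradiated KO relative to irradiated WT (-0.51, adjusted p = 0.049). CD24, a ligand of Siglec-10 on macrophages, rose with radiation 2.13-fold in WT and 2.11-fold in KO (0.82 and 0.83, limma adjusted p = 0.013 in each).

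Among 12 other NK cell ligands 9 were tested, and 0 were called in unirradiated KO, 1 was lower in irradiated KO, 1 was higher and 1 lower with radiation in WT, and 1 was higher with radiation in KO, with medians of -0.05, -0.13, 0.04 and 0.03. NCR3LG1, which encodes the NKp30 ligand B7-H6, fell in irradiated KO relative to WT from 21.6 to 17.6 TPM (log2 fold change -0.28, limma adjusted p = 0.046). ICAM1, an adhesion ligand of LFA-1, rose with radiation from 37.4 to 48.9 TPM in WT (0.38, limma adjusted p = 0.0018) and from 36.3 to 46.4 TPM in KO (0.35, adjusted p = 0.0035). CLEC2B, the ligand of NKp80, fell with radiation in WT from 20.8 to 14.3 TPM (-0.50, limma adjusted p = 0.043). HLA-E, a ligand of NKG2A, had means of 175 TPM in unirradiated WT and 154 TPM in unirradiated KO (limma adjusted p = 0.19), and averaged over both arms it was lower in KO (log2 fold change -0.19, adjusted p = 0.027).

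Of the 12 tested genes of processing, shedding and adenosine metabolism, 0 were called in unirradiated KO and 1 was lower in irradiated KO, while radiation raised 3 in WT and 1 in KO, with medians of -0.02, -0.04, 0.04 and -0.02. CMTM6, which stabilizes PD-L1 at the cell surface, rose with radiation in WT from 93.0 to 106 TPM (log2 fold change 0.18, limma adjusted p = 0.035). THBS1, an extracellular ligand of CD47, rose in WT from 36.8 to 49.9 TPM (0.43, limma adjusted p = 0.0011) and in KO from 41.5 to 50.6 TPM (0.28, adjusted p = 0.0094). ADAM17, a sheddase of MICA and MICB, had means from 38.4 to 43.4 TPM and was not called.

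All 19 regulators of ligand transcription reported here were tested, and in limma KO was lower for 1 in unirradiated and for 4 in irradiated cells, with 0 called for radiation in either genotype. The list's median log2 fold change was -0.06 and -0.08 in the KO comparisons and -0.01 and -0.02 in the radiation comparisons, against -0.02, -0.02, 0.02 and 0.02 for all tested genes. IRF9, a DNA-binding subunit of an interferon-activated transcription factor complex, fell in KO from 48.5 to 20.6 TPM in unirradiated cells (-1.19, limma adjusted p = 0.0057) and from 80.9 to 18.3 TPM in irradiated cells (-2.09, adjusted p = 7.6e-05). In irradiated cells STAT2 (-0.38, limma adjusted p = 0.048) and IRF1, a direct activator of the PD-L1 gene (-0.73, adjusted p = 0.038), were also lower in KO, beside HSF1. Receptors for these ligands were scarce, and 11 of 13 stayed under 1 TPM in all 12 libraries, while none of the 2 tested was called.

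**Figure D4:**
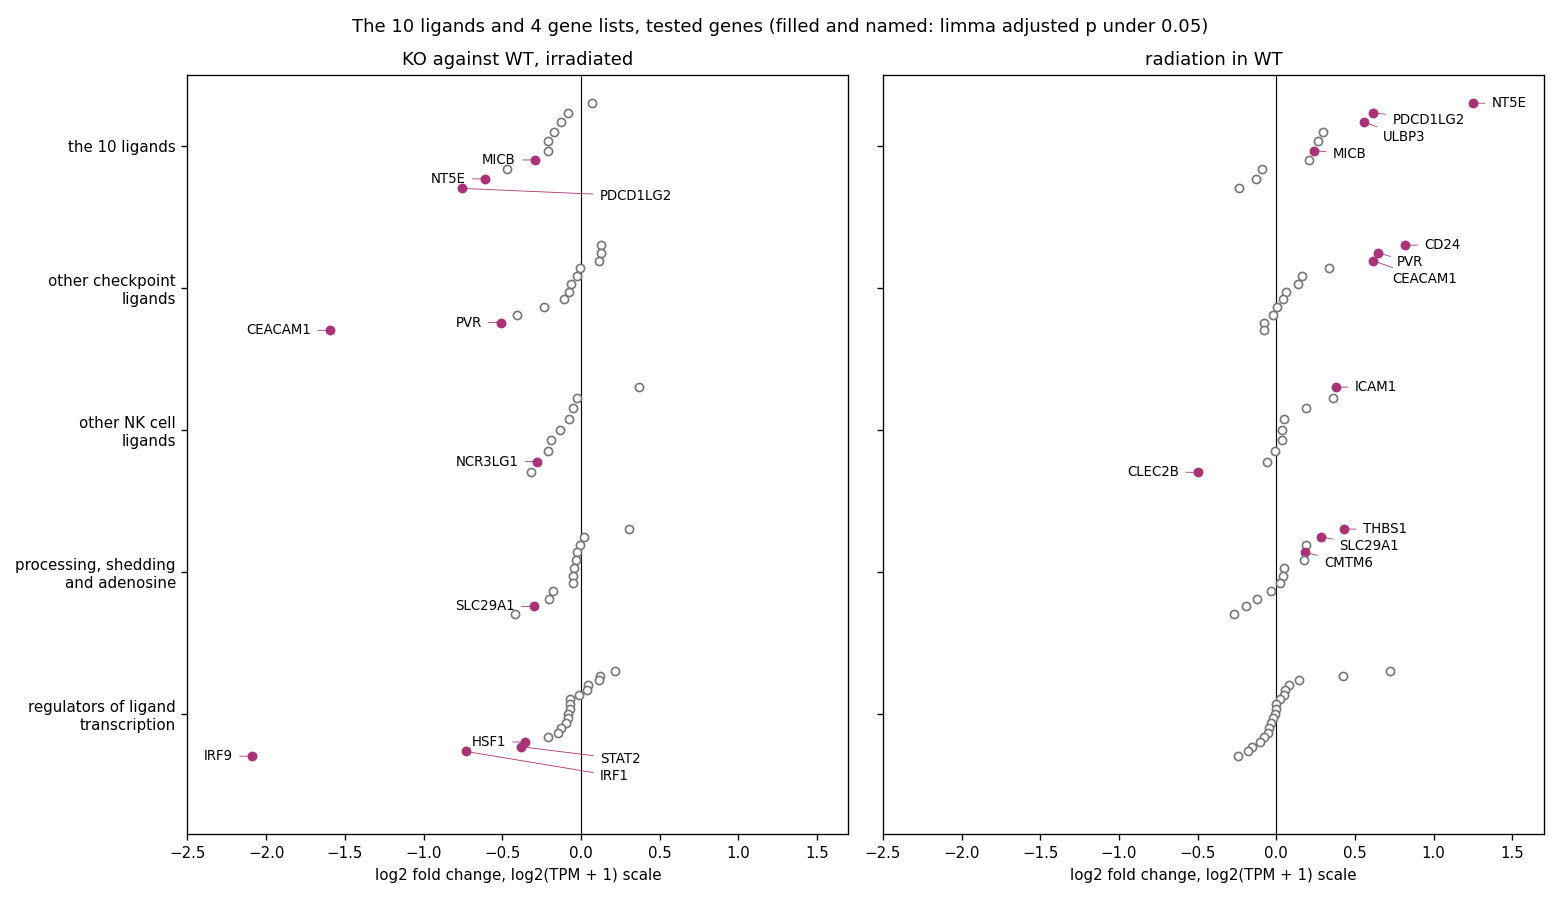
Log2 fold changes on the log2(TPM + 1) scale (horizontal axes) of the tested ligands and of 4 gene lists (rows), with a point per gene and filled, named points for a limma adjusted p under 0.05. In the left panel (KO against WT, irradiated) the filled points lie to the left of 0, out to IRF9 at -2.09, and in the right panel (radiation in WT) they lie to the right except for CLEC2B at -0.50.

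Genes whose log2(TPM + 1) followed the called members over the 12 libraries are given as a description, since likeness over 4 groups mostly reflects the group means. NT5E was most like ADAM8 (Pearson's r = 0.982), CYP24A1 (0.981) and LIF (0.978). PDCD1LG2 was most like GPR3 (0.976), RNF149 (0.975) and MRPS30 (0.965), and MICB was most like CCL22 (0.97), HSH2D (0.97) and PLAUR (0.967). ULBP2 was most like TIMP2 (0.962), PIM1 (0.958) and ECE1 (0.953), ULBP3 was most like CREB5 (0.93), ETV5 (0.925) and SH3BGRL3 (0.916), and ULBP1 was most like ATP6V1F (0.953), OSBP2 (0.94) and MARCH9 (0.934).

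Within 100 kb of a member lay 17 tested genes that are not members, and 3 of them, HLA-B, LTB and LRP11, passed the threshold in at least 1 of the 4 comparisons, as did 8.19% of all tested genes. HLA-B, a class I antigen-presenting gene 42.6 kb from MICA, fell in KO by 1.76 and by 1.83 on the log2 scale in unirradiated and irradiated cells (limma adjusted p = 2.29e-05 and 1.42e-05). LTB, near MICB, rose with radiation in WT (0.75, limma adjusted p = 0.048), and LRP11, near ULBP1 and ULBP2, fell with radiation by 0.31 in WT and by 0.23 in KO (adjusted p = 0.00913 and 0.0312). PLGRKT, 12.6 kb from CD274, and PPP1R14C passed only in the mean radiation effect over both genotypes (limma adjusted p = 0.0435 and 0.0358).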

How the data were processed

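Poly-A selected RNA from 12 FaDu libraries was sequenced, and the authors deposited TPM values, transcript abundance scaled to length and library total, for 58288 genes. HISAT2, StringTie, DESeq2 and hg38 are named in the submitters' processing notes, while versions, annotation and strand setting are not given in the sources used here. TPM keeps no depth, so no counting interval is given. Column names carry codes in place of the genotypes in the labels. The non-targeting code was read from the study's methods and the other code as STING KO, a reading taken from the description of the gene set and not from the labels.

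Genes with at least 1 TPM in 3 libraries (15973) were tested on log2(TPM + 1) with limma 3.58.1 in R 4.3.3, with 4 group means, a variance trend and 8 residual degrees of freedom, and p-values were adjusted by Benjamini-Hochberg over all tested genes. Confidence intervals are at 95%. Files were handled with Python 3.11.15 and pandas 2.3.3, and plots were drawn with matplotlib 3.10.9. The limma script was tested on simulated data for KO against WT in unirradiated cells. It called 41.8%, 77.6% and 93.9% of genes changed by 0.5, 1 and 2 on the log2 scale. A change of 0.5 or less can therefore often go uncalled. Gene positions came from GENCODE release 29 and promoters from RefSeq (GRCh38.p14), in which 9 of 10 members had an entry. For CD47 the gene ID matched without its version.

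Members and lists were chosen with earlier results of these data known, and 1 gene of the list of regulators is not reported here. Named were all members, genes of each list past the threshold in the unirradiated KO or radiation comparisons (at most 4 per list and comparison), the 3 genes most like each called member, and tested genes within 100 kb. NCR3LG1, STAT2, IRF1, HSF1, ADA, ADORA2B, ENTPD1, ENTPD3, HLA-E, ADAM17, SIRPA and RAET1L were named after their values were seen. Alternatives were a pseudocount of 0.1, no filter, quantile normalization, a minimum mean of 5 TPM, scaling by median-of-ratios factors (0.982 to 1.02), no variance trend, a replicate block, fits on the compared libraries alone, and each library left out.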

Additional observations from a re-analysis of the deposited data

How the results depend on the processing

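NT5E kept its calls for radiation in each genotype and for KO in irradiated cells under every alternative and without each library. Counts of members called in this section include PDCD1LG2 where it was tested. In fits on the compared libraries alone, which use fewer libraries to estimate the spread, limma called 103, 252, 166 and 195 genes of all tested for KO unirradiated, KO irradiated, radiation in WT and radiation in KO, where the full fit called 276, 573, 597 and 590. Members called were then 1 for KO irradiated (PDCD1LG2 0.073 and MICB 0.063 as adjusted p), 1 for radiation in WT and 1 for radiation in KO, and the radiation calls lost were PDCD1LG2 (0.11), MICB (0.11) and ULBP3 (0.15) in WT and ULBP2 (0.078) in KO. In unirradiated cells 1 member, NT5E, was called with a pseudocount of 0.1 or a mean TPM of at least 5. The mean KO and mean radiation effects of MICA became calls with that filter (limma adjusted p = 0.047 and 0.042). Without a filter 1 member was called for radiation in KO (ULBP2 0.07), ULBP3 in WT had an adjusted p of 0.073, and the interaction gave 7 genes in place of 3. Without the variance trend the interaction gave 1 gene. With a pseudocount of 0.1 the radiation response of PDCD1LG2 in WT was 1.24 on its log2 scale (limma adjusted p = 0.075). The cause of these changes was not tested.

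Replicate numbers gave no sign of pairing, since deviations of same-numbered libraries from their group means correlated between -0.0602 and 0.0641 over 18 pairs. These correlations run over all tested genes and cannot exclude a shared batch that affects few genes. With the replicate block, limma called 378 genes for KO irradiated, 315 for radiation in WT, 359 for radiation in KO and 1 for the interaction, with 2 members for radiation in WT (PDCD1LG2 0.051 and MICB 0.053 were lost) and 1 for radiation in KO (ULBP2 0.07 was lost). TPM keeps no depth, so the counting error of low genes such as PDCD1LG2 and ULBP1 is unknown.

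With each library left out in turn, all genes called ranged from 172 to 292 for KO unirradiated, 313 to 542 for KO irradiated, 242 to 526 for radiation in WT, 268 to 553 for radiation in KO, 1 to 9 for the interaction, 788 to 951 for the mean KO effect and 1142 to 1355 for the mean radiation effect. Members called ranged from 3 to 4 for KO irradiated, 1 to 3 for radiation in WT, 1 to 2 for radiation in KO, 3 to 4 for the mean KO effect and 5 to 7 for the mean radiation effect, and stayed at 0 for KO unirradiated and the interaction. The sign turned in 29 uncalled values. For CD276 the log2 fold change ranged from -0.30 to 0.49 for KO unirradiated, -0.81 to 0.16 for KO irradiated, -0.41 to 0.55 for radiation in WT, -0.75 to 0.0432 for radiation in KO, -0.90 to 0.13 for the interaction, -0.36 to 0.16 for the mean KO effect and -0.42 to 0.10 for the mean radiation effect. For CD274 it ranged from -0.33 to 0.0647 for KO irradiated, -0.38 to 0.0190 for radiation in WT, -0.0577 to 0.16 for radiation in KO and -0.16 to 0.0348 for the mean radiation effect. The interaction ranged from -0.0143 to 0.10 for CD47, -0.0837 to 0.0305 for ULBP1 and -0.0229 to 0.13 for ULBP2.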

Other observations

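PVR, a ligand outside the 10 genes, was singled out after its values were seen. It stood at 25.8, 23.5 and 26.3 TPM in unirradiated WT, 34.8, 35.8 and 35.1 TPM in unirradiated KO, 41.2, 37.0 and 41.9 TPM in irradiated WT and 35.0, 23.1 and 26.5 TPM in irradiated KO. KO was above WT without overlap in unirradiated cells and below WT without overlap in irradiated cells. The interaction was -0.98 on the log2(TPM + 1) scale (unadjusted p = 0.00018), but with a limma adjusted p of 0.27 it did not pass the threshold, and the unirradiated difference was 0.47 (limma adjusted p = 0.10).

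RAET1L, an NKG2D ligand of the ULBP family that was too low to be tested, was also singled out after its values were seen. It had mean values of 0.603 TPM in unirradiated WT, 0.224 TPM in unirradiated KO, 1.22 TPM in irradiated WT and 0.337 TPM in irradiated KO. Its tested relatives RAET1E and RAET1G were not called in any comparison. RAET1L shares 100-base windows with ULBP2, so its values carry uncertainty from shared reads.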
